A study of Homo sapiens with 72 samples.

Results

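Base excision repair and single-strand break repair were followed through 9 genes in PEO1 cells exposed to the PARP inhibitor rucaparib. The genes are XRCC1, LIG3, POLB, APEX1, UNG, OGG1, NTHL1, TDP1 and CHD1L, which act at the repair steps that PARP1 serves. They were chosen by name, for this function, although earlier results of these data were known when they were chosen. All 9 were found among the 56270 genes to which the listed transcripts could be assigned, and all 9 were among the 20131 genes tested.

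PEO1 is an ovarian cancer line of the high-grade serous type. Cells received rucaparib at 8.5 µM or DMSO, and RNA was taken after 2 h or 24 h. Rucaparib fluoresces, so treated cells were also sorted by flow cytometry into those with the highest 20% (RucHigh) and lowest 20% (RucLow) of drug fluorescence, whereas unsorted treated cells (RucTotal) and unsorted DMSO cells (Vehicle) were scraped into lysis buffer. Each of the 8 groups (RucHigh, RucLow, RucTotal and Vehicle at each time) held 3 replicates of 3 libraries, and the 3 libraries of a replicate were summed, which gave 24 samples. All samples are of 1 cell line in culture, and RucHigh and RucLow differ from RucTotal in handling as well as in drug content.

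These genes form a relay. DNA glycosylases such as UNG, OGG1 and NTHL1 cut out damaged bases, APEX1 opens the strand at the resulting gap, POLB fills it and LIG3, held by the scaffold protein XRCC1, seals it, whereas TDP1 cleans blocked 3′ ends and CHD1L is a chromatin remodeller that binds poly(ADP-ribose). PARP1 senses the open strand and its poly(ADP-ribose) chains recruit XRCC1 and CHD1L. PARP inhibitors block the synthesis of these chains and hold PARP1 on the break.

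The 72 libraries held between 17391033 and 38899905 estimated reads (median 33431403). Levels are in CPM, which are counts scaled to a total adjusted between samples by the TMM scaling named in the methods. Markers of serous ovarian cancer were present in every sample, with PAX8 between 137 and 247 CPM and KRT7 between 5143 and 8017 CPM. The leukocyte gene PTPRC reached at most 0.111 CPM and the endothelial gene PECAM1 at most 0.259 CPM. The fibroblast gene COL1A1 lay between 5.59 and 30.8 CPM, with DCN at most 0.345 CPM. Libraries also differed in mean transcript length, which is the average length of the transcripts their reads were assigned to. It ranged between 2255 and 3299 bases, with 18 libraries under 2800 bases.

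UNG is the member with a pair of separate starts in the annotation, each of which gives a different protein form: the upstream start yields the nuclear form of uracil-DNA glycosylase, and the downstream start, inside the first intron of the other transcript, yields the mitochondrial form. Transcript UNG-201 starts at position 109097574 of chromosome 12 (plus strand, GRCh38) and UNG-202 at position 109098118. UNG-201 took 91.9% of the reads of the gene on average over the 24 samples (lowest 84.8%, highest 94.9%), against 6.16% for UNG-202 (lowest 2.07%, highest 10.3%). The 180 bases before each start, which carry no annotated exon, are shown because nearly all of the UNG signal below belongs to the first of them. Both come from the RefSeq promoter table (GRCh38.p14), which lists promoters for 8 of the 9 members and none for POLB. Capitals mark matches, on either strand, to GGGCGG (a GC box), CCAAT, TTTNNCGC (an E2F-type site) and CACGTG (an E-box).
UNG upstream start, chr12:109097394-109097573, plus strand: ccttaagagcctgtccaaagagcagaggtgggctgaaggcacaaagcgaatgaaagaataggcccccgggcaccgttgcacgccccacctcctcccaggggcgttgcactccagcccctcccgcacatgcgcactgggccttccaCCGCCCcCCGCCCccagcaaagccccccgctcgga
UNG downstream start, chr12:109097938-109098117, plus strand: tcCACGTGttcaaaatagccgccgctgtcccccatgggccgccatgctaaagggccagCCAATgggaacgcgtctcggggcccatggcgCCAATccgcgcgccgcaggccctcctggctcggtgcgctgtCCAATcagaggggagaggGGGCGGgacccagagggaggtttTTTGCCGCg

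The upstream window held 2 GC boxes, both on the reverse strand, and none of the other motifs. The downstream window held 3 CCAAT matches and 1 match each to GGGCGG, TTTNNCGC and CACGTG. Over the same 180 bases of all 35116 promoters in the table, GGGCGG occurred in 38.9%, CCAAT in 26.2%, TTTNNCGC in 4.39% and CACGTG in 5.12%. GC content was 67.2% in the upstream window with 11 CpG dinucleotides, and 67.8% in the downstream window with 17 CpG dinucleotides, compared with medians of 59.4% and 8 over all promoters.

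Levels of the members differed widely. Per length, in TPM (a share of all transcripts, scaled by transcript length), APEX1 was the most abundant at 197 TPM on average over the 24 samples, followed by UNG at 51.8 TPM, POLB at 36.5 TPM and NTHL1 at 24.5 TPM. XRCC1 had a level of 15.6 TPM, CHD1L 13.5 TPM, OGG1 13.4 TPM and TDP1 7.18 TPM. The ranges of XRCC1 (10.3 to 19.3 TPM), CHD1L (7.87 to 19.2 TPM) and OGG1 (10.5 to 15.8 TPM) over the samples overlapped, and NTHL1 (12.9 to 41.6 TPM) overlapped them and POLB (30.7 to 52 TPM). UNG (39.9 to 67.5 TPM) overlapped POLB and NTHL1, and TDP1 (3.97 to 11 TPM) overlapped XRCC1, CHD1L and OGG1, so that APEX1 alone, with a lowest value of 174.5 TPM, stood clear of the others. LIG3 came to 27.1 TPM, but LIG3-203, a 235-base transcript with 1.31% of the reads of the gene, carried most of that value, and without it LIG3 came to 9.09 TPM. Values below are therefore in CPM, which do not depend on assigned length and compare samples for 1 gene, not genes with one another. Summed estimated counts per sample ranged between 709 (TDP1) and 25320 (APEX1).

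**Figure D1:**
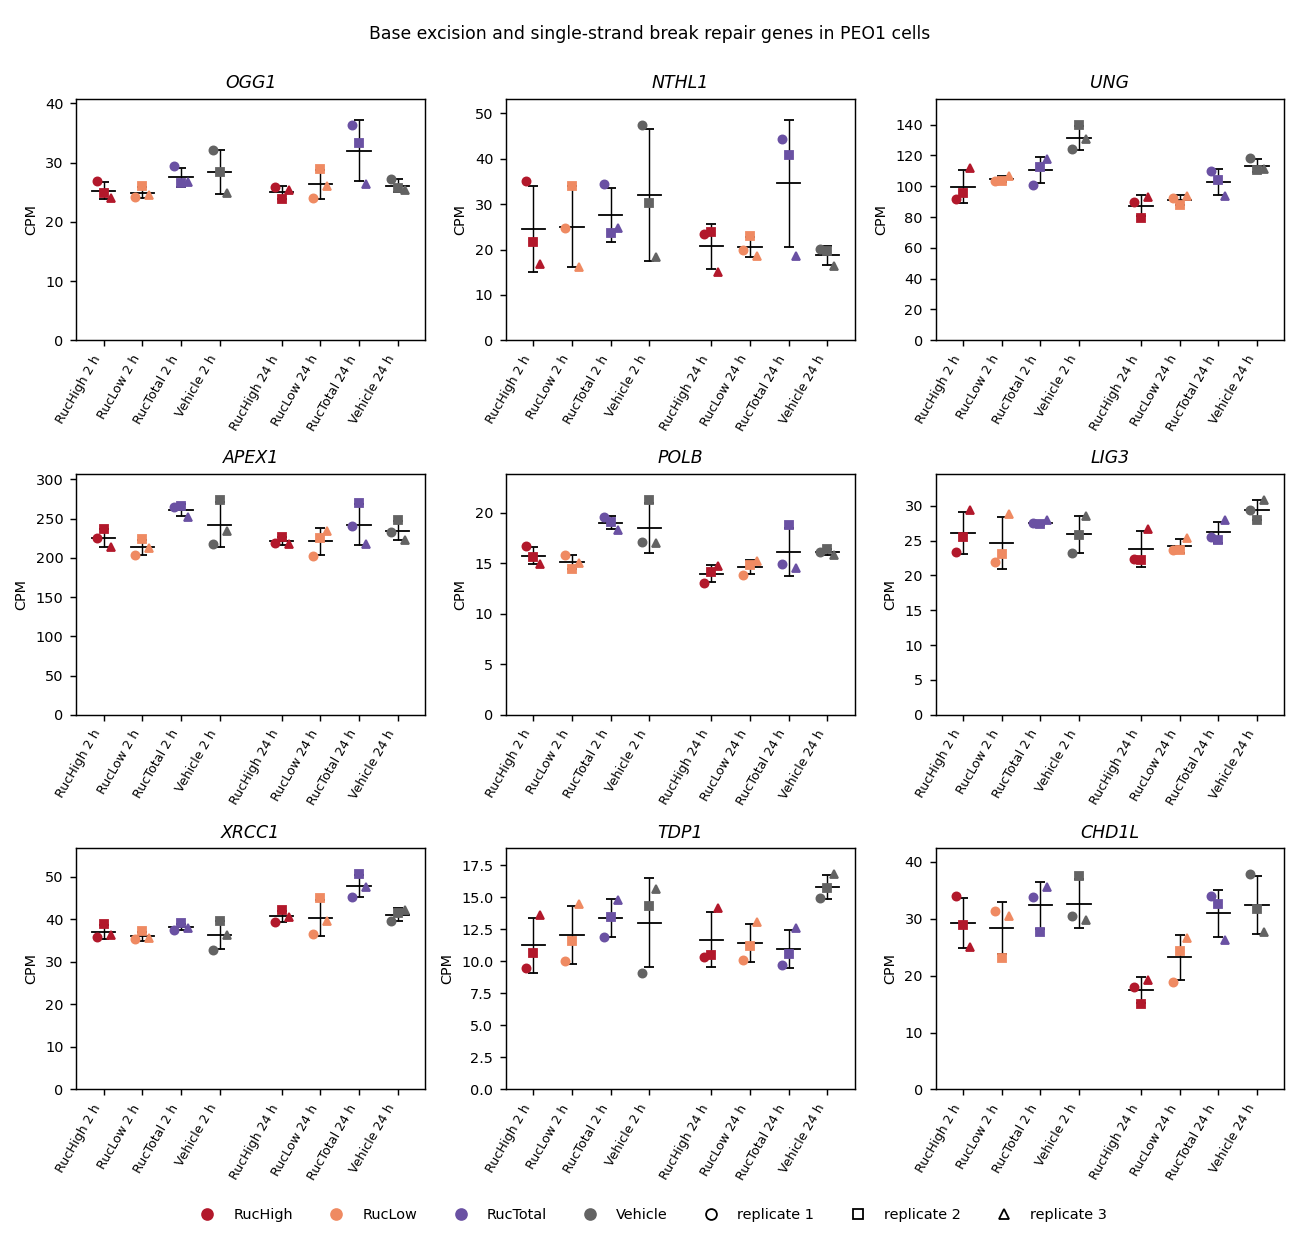
Level of each gene in CPM (vertical axes, starting at 0) in the 24 samples, by group and time. Points are replicates, bars the mean ± SD of 3. CHD1L sits lowest in RucHigh and RucLow cells at 24 h, TDP1 is lower in RucTotal than in Vehicle cells at 24 h, and NTHL1 has the widest spread within groups.

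After 2 h of rucaparib, no member passed the test in unsorted cells. In edgeR's quasi-likelihood test with Benjamini-Hochberg adjustment over all genes, 0 of 9 members were called in RucTotal against Vehicle, where 0.0248% of all genes were, and DESeq2 also called 0. With the replicate number as a block, the share of all genes was 0.144% and the members called were again 0. UNG was the 1 member with an unadjusted p under 0.05. Its level was 101, 112 and 117 CPM in RucTotal cells, against 124, 139.7 and 131 CPM in Vehicle cells. The groups did not overlap. Its log2 fold change was -0.25 (95% interval -0.44 to -0.06, edgeR unadjusted p = 0.0118, adjusted p = 0.597), with a lower value in 3 of 3 replicates.

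The other 8 members had log2 fold changes between -0.22 (NTHL1) and 0.11 (APEX1) at 2 h. The sealing pair XRCC1 and LIG3 came to 0.08 (95% interval -0.10 to 0.25) and 0.09 (-0.15 to 0.33). For POLB, the gap-filling polymerase, the interval was -0.18 to 0.26, and for NTHL1 it was -0.95 to 0.52, the widest of the 9. The median over the members was 0.04, against 0.01 over all genes tested.

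After 24 h of rucaparib, XRCC1, OGG1 and NTHL1 were higher and TDP1 was lower in RucTotal than in Vehicle cells in each of the 3 replicates, but whether they were called depended on the replicate block. Without it, 0 of 9 members were called by edgeR while 3.35% of all genes were, with 4 members at an unadjusted p under 0.05. DESeq2 called 1, TDP1, and its share of all genes is not given here. With the block, XRCC1, OGG1 and NTHL1 were called higher and TDP1 lower, 4 of 9 members where 24% of all genes were called. The median log2 fold change over the members was 0.00 without the block, against 0.03 over all genes.

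TDP1, the phosphodiesterase that removes stalled topoisomerase I and other blocks from 3′ ends, was the member called lower with the block. It had 9.75, 10.5 and 12.6 CPM in RucTotal cells, against 14.9, 15.7 and 16.8 CPM in Vehicle cells. The highest treated sample lay below the lowest Vehicle sample. The log2 fold change was -0.53 (SE 0.20, edgeR adjusted p = 0.119), and -0.54 with the replicate block (adjusted p = 0.00213). It was called with the block also without replicate 1 (adjusted p = 0.0188) and without replicate 3 (0.0157), but not without replicate 2 (0.119). Its level went along with the mean transcript length of the sample (Pearson r = 0.57 over 24 samples of 1 cell line), and with this length as a covariate beside the block its fold change was -0.48 (adjusted p = 0.0238).

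At 2 h TDP1 had shown 11.9, 13.5 and 14.8 CPM in RucTotal cells, against 9.06, 14.4 and 15.6 CPM in Vehicle cells, and these groups overlapped. The difference between the drug effects at 24 h and at 2 h was -0.57 on the log2 scale (SE 0.28, adjusted p = 0.245), and -0.60 with the block (adjusted p = 0.0147), which was not called without replicate 1 (adjusted p = 0.178), without replicate 2 (0.185) or with mean transcript length beside the block (-0.53, adjusted p = 0.0717). Across all 9 members this difference was called for 0 by edgeR without the block, 2 members having an unadjusted p under 0.05 and DESeq2 calling 0, and for TDP1 alone with the block. Of all genes, 0.139% and 18% were called.

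XRCC1, the scaffold that holds LIG3 at the break, had 45.3, 50.6 and 47.6 CPM in RucTotal cells at 24 h, against 39.5, 41.6 and 42.2 CPM in Vehicle cells. The groups did not overlap, and each treated replicate was above its Vehicle counterpart by 0.20, 0.28 and 0.17 on the log2 scale. It differed by 0.22 on the log2 scale (SE 0.09, adjusted p = 0.133 in edgeR) and kept this value with the block (adjusted p = 0.0158). It was not called with the block once any 1 replicate was left out (adjusted p 0.0699 to 0.351), and on a TPM scale it came to -0.03. XRCC1 varied little with mean transcript length (r = 0.14), although with this length as a covariate beside the block it came to 0.21 and was not called (adjusted p = 0.0599).

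The glycosylases OGG1 and NTHL1, which remove oxidised purines and oxidised pyrimidines, were higher in the same samples. OGG1 had 36.3, 33.3 and 26.3 CPM in RucTotal cells at 24 h, against 27.3, 25.8 and 25.3 CPM in Vehicle cells. NTHL1 had 44.4, 40.9 and 18.6 CPM in RucTotal cells, against 20.2, 19.7 and 16.3 CPM in Vehicle cells. In both genes replicates 1 and 2 carried the difference, and the treated sample of replicate 3 fell within or near the Vehicle range. The log2 fold change of OGG1 was 0.29 (SE 0.11, adjusted p = 0.129 in edgeR, 0.0386 with the block), and that of NTHL1 was 0.89 (SE 0.35, adjusted p = 0.139, and 0.0188 with the block).

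The samples with the high values were also those with shorter transcripts. Mean transcript length was 2745, 2721 and 3232 bases in RucTotal cells at 24 h, against 3119, 3108 and 3231 bases in Vehicle cells. Over the 24 samples the log2 level of NTHL1 followed this length with Pearson r = -0.92 (-0.95 after the group means were removed), and OGG1 with r = -0.64 (-0.81). These correlations are descriptions over samples of 1 cell line. With the length as a covariate beside the block, the fold change of NTHL1 was 0.22 (adjusted p = 0.314) and that of OGG1 0.11 (adjusted p = 0.511). What set the transcript length of these libraries was not tested. Without libraries under 2800 bases, NTHL1 came to 0.48 (adjusted p = 0.288, and 0.0301 with the block), and OGG1 to 0.21 (adjusted p = 0.245, and 0.12 with the block). Without replicate 3, NTHL1 came to 1.08 and was called also without the block (adjusted p = 0.0292), whereas with the block neither gene was called once replicate 1 or replicate 2 was left out.

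**Figure D2:**
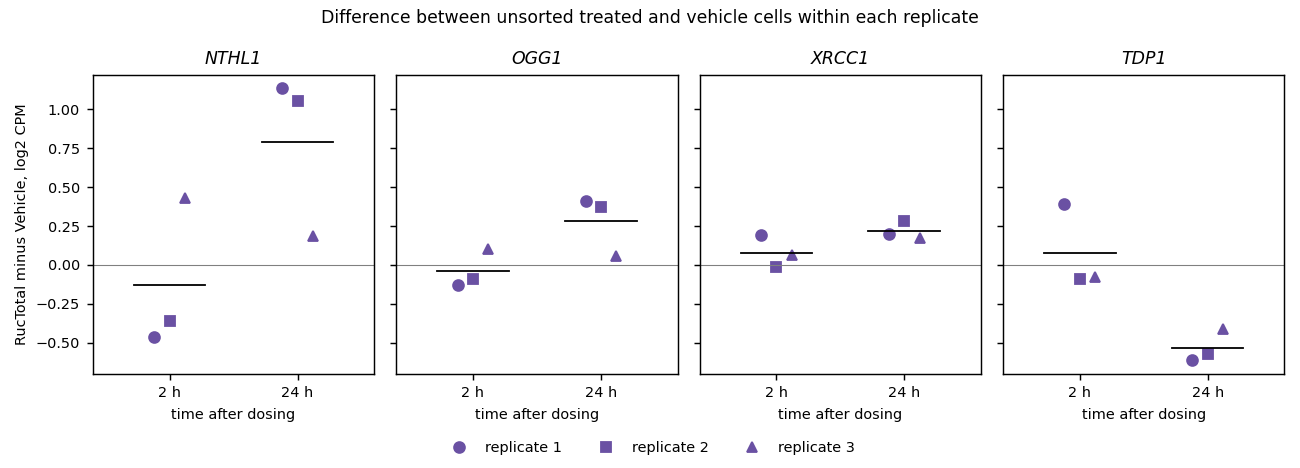
RucTotal minus Vehicle in log2 CPM (vertical axis) within each replicate (points, with their mean as a line) at 2 h and at 24 h. At 24 h the differences of NTHL1 are 1.14, 1.05 and 0.19 and those of TDP1 are -0.61, -0.57 and -0.41.

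**Figure D3:**
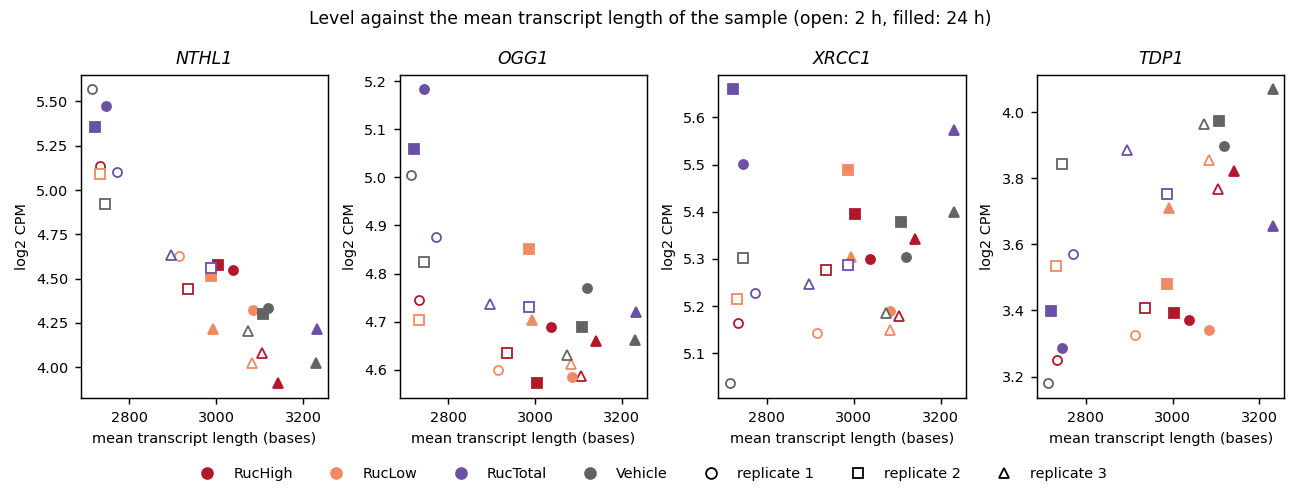
Log2 CPM of 4 genes (vertical axes) against the mean transcript length of the sample in bases (horizontal axes), 24 samples coloured by group. NTHL1 falls along the axis (r = -0.92), TDP1 rises (r = 0.57), and XRCC1 shows little relation (r = 0.14).

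The remaining 5 members had log2 fold changes between -0.17 and 0.05 at 24 h and were not called with or without the block. LIG3, the ligase partner of XRCC1, had 25.5, 25.1 and 27.9 CPM in RucTotal cells, against 29.4, 27.9 and 30.9 CPM in Vehicle cells, lower in each of 3 replicates (log2 fold change -0.17, SE 0.11, adjusted p = 0.368 in edgeR). UNG had 110.2, 104 and 93.4 CPM in RucTotal cells, against 118, 110.5 and 111 CPM in Vehicle cells (-0.15, adjusted p = 0.331). For APEX1, the endonuclease that follows the glycosylases, the 95% interval was -0.15 to 0.24, and for POLB it was -0.22 to 0.22.

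Over the 24 samples the genes whose log2 levels were among the most like TDP1, of 10959 genes of at least 5 CPM, included CHRDL1 and HNRNPK (Pearson r = 0.94 for both). For XRCC1 these were RGS14 (0.93), ERICH5 (0.87) and ARHGEF37 (0.85). OGG1 was most like UBL4A (0.95), PYCR3 (0.93) and JMJD4 (0.92), and NTHL1 was most like EEF1D, RPS19BP1 and PMVK (all 0.99). The levels of NTHL1, OGG1 and TDP1 also went with mean transcript length over these samples, as given above. Its part in these correlations was not tested.

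Among 23 other genes of base excision and single-strand break repair, 1 was called higher and 0 lower in RucTotal against Vehicle at 24 h, where 2.2% of all genes were called higher. This was ADPRS (0.77 on the log2 scale, SE 0.17, adjusted p = 0.0188 in edgeR), the hydrolase that takes ADP-ribose off serines. With the block 9 were called higher and 0 lower, against 13.2% and 10.8% of all genes. Named after their values were seen, these included ADPRS, the flap endonuclease FEN1 (0.77 with the block), the ligase LIG1 (0.92), the glycosylases MUTYH (0.47), MPG (0.98) and SMUG1 (0.58), the polymerase POLL (0.37) and APEX2 (0.24). The median over the 23 genes was 0.24 without the block, against 0.03 over all genes, and 17 of 23 lay above 0. At 2 h 0 of 23 were called in either direction with or without the block. RucTotal replicates 1 and 2 at 24 h had the shorter transcripts given above. Values of the 23 genes with mean transcript length as a covariate are not given here.

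PARP1, the drug's target, averaged 53.5 CPM and had a log2 fold change of -1.17 at 24 h with an SE of 0.90 (adjusted p = 0.431), an error too wide to give its direction. Reads on transcripts that could not be assigned to a gene, 7.11% to 8.96% of a library, are not in any gene's count, and a shift between assigned and unassigned transcripts would appear as a change of the gene.

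In RucTotal cells at 24 h 7 of 14 genes of G2 and mitosis were called lower, where 1.15% of all genes were, with a median of -0.93, among them KIF20A (-1.95, adjusted p = 0.0094 in edgeR) and DLGAP5 (-1.25, adjusted p = 0.0172), against 0 of 24 genes of S phase in either direction (median 0.12). With the block 12 of the 14 were called lower, against the 10.8% of all genes given above, and of the 24 genes of S phase 4 were called higher and 2 lower. In bulk RNA, fewer cells expressing a gene and less RNA per cell cannot be told apart. Of 10 handling and stress genes 1 was called higher, HSPA1A (0.77, adjusted p = 0.0336). The part of cell cycle position in the levels of the 9 members was not tested.

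**Figure D4:**
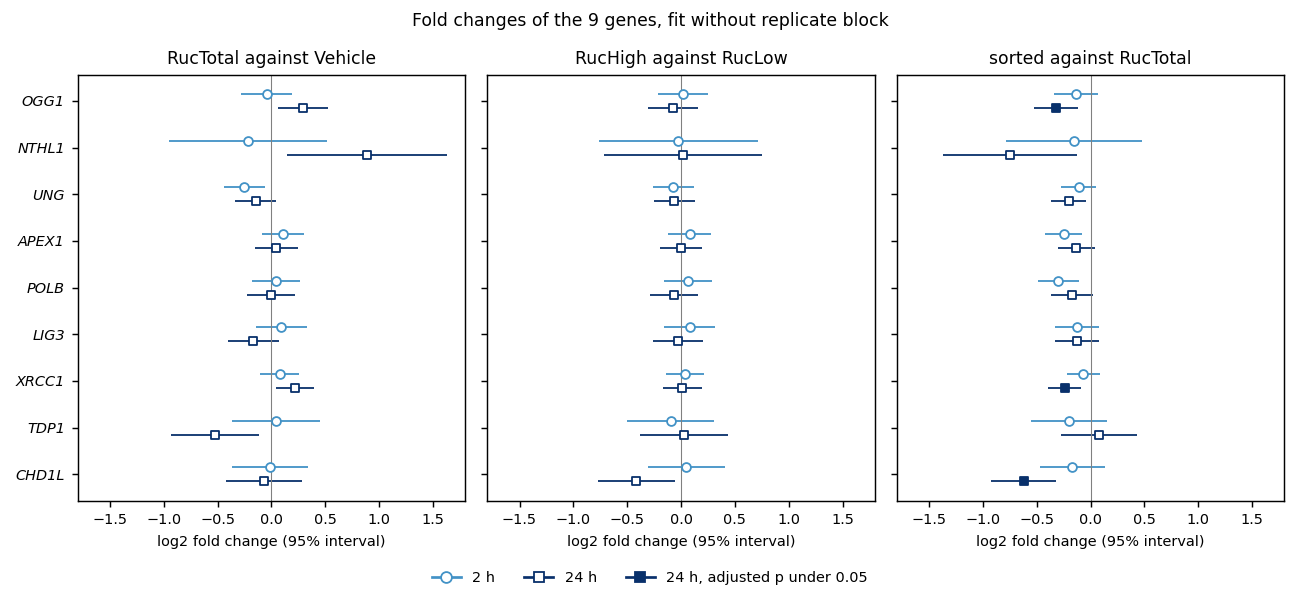
Log2 fold change with its 95% interval (horizontal axes) of the 9 genes in 3 comparisons at 2 h (circles) and 24 h (squares), fit without replicate block. Filled symbols passed the adjusted p threshold of 0.05, which only OGG1, XRCC1 and CHD1L did, in sorted against RucTotal cells at 24 h.

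No member was called between cells sorted for high and low drug content. In RucHigh against RucLow, 0 of 9 members were called by edgeR at 2 h and 0 of 9 at 24 h, with or without the block, and 0 by DESeq2 at either time. Of all genes, 0.00497% were called at 2 h and 0.109% at 24 h without the block, and 0.378% and 0.611% with it. At 2 h 0 members had an unadjusted p under 0.05, and the log2 fold changes lay between -0.10 (TDP1) and 0.08 (LIG3). The 95% intervals were narrowest for XRCC1 (-0.14 to 0.22), UNG (-0.26 to 0.12) and APEX1 (-0.12 to 0.28), and widest for NTHL1 (-0.76 to 0.71).

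CHD1L was the 1 member with an unadjusted p under 0.05 between the gates at 24 h. It had 18.1, 15 and 19.3 CPM in RucHigh cells, against 18.9, 24.3 and 26.6 CPM in RucLow cells, lower in 3 of 3 replicates, although the groups overlapped. The difference was -0.41 on the log2 scale (95% interval -0.77 to -0.06, edgeR unadjusted p = 0.025, adjusted p = 1). At 2 h it had 33.9, 28.9 and 25.1 CPM in RucHigh cells, against 31.4, 23.1 and 30.5 CPM in RucLow cells. The change of this gate difference between the times was -0.46 (SE 0.24, adjusted p = 1). For 0 of 9 members was the gate difference called as different between 24 h and 2 h by edgeR or DESeq2, 0 members had an unadjusted p under 0.05, and 0% of all genes were called with or without the block.

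Sorted cells, as the mean of RucHigh and RucLow, had lower levels of several members than RucTotal cells, and handling and gate cannot be told apart here. The comparisons of RucTotal with Vehicle and with sorted cells share the RucTotal samples. At 24 h XRCC1, OGG1 and CHD1L were called lower in sorted cells, 3 of 9 members, where 5.14% of all genes were called lower and 9.46% in either direction. With the block NTHL1 joined them, 4 of 9 members, and of all genes 13.9% were called lower and 24.7% in either direction. DESeq2 called XRCC1, OGG1, CHD1L and UNG lower, and its share of all genes is not given here. The median over the members was -0.20, against 0.01 over all genes, and 1 of 9 members (TDP1) lay above 0.

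Of the 3 members called without the block, CHD1L differed most. Its 18.1, 15 and 19.3 CPM in RucHigh cells and 18.9, 24.3 and 26.6 CPM in RucLow cells stood against 34, 32.6 and 26.2 CPM in RucTotal cells. Only the RucLow and RucTotal samples of replicate 3 (26.6 and 26.2 CPM) crossed. Sorted against RucTotal cells differed by -0.62 on the log2 scale (SE 0.14, adjusted p = 0.014 in edgeR), and it was not called without replicate 1 (-0.49, adjusted p = 0.183) or without replicate 2 (-0.52, adjusted p = 0.388). With the block the difference was called (adjusted p = 0.00563), but again not without replicate 1 (0.0932) or replicate 2 (0.134). At 2 h it was -0.17 (SE 0.15, adjusted p = 0.598).

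The reads of CHD1L were assigned mainly to a pair of coding transcripts that share their start, CHD1L-202 (2967 bases) and CHD1L-203 (2358 bases). CHD1L-202 had 7.83 ± 1.56 CPM in RucHigh and 8.46 ± 4.44 CPM in RucLow cells at 24 h, against 24.2 ± 4.17 CPM in RucTotal cells (SD, n = 3 each). CHD1L-203 had 6.88 ± 1.23 CPM in RucHigh and 11.7 ± 1.45 CPM in RucLow cells, against 3.95 ± 4.07 CPM in RucTotal cells. In these estimates the mean of CHD1L-202 was lower in sorted than in RucTotal cells, whereas that of CHD1L-203 was higher. Vehicle cells at 24 h resembled RucTotal cells with 24.3 ± 4.49 CPM of CHD1L-202. Estimates of transcripts that share most of their bases trade reads with each other. Among samples CHD1L-202 took 24.4% to 87.5% of the reads of the gene and CHD1L-203 0.941% to 67.8%. These values are therefore given without a test, and they do not settle in which transcript the lower gene total lay. CHD1L also overlaps FMO5 on the opposite strand in the annotation, as NTHL1 does TSC2, OGG1 does CAMK1 and APEX1 does PIP4P1, and whether reads were counted by strand is not given in the sources used here, so the levels of all 4 members may hold reads of these neighbours.

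**Figure D5:**
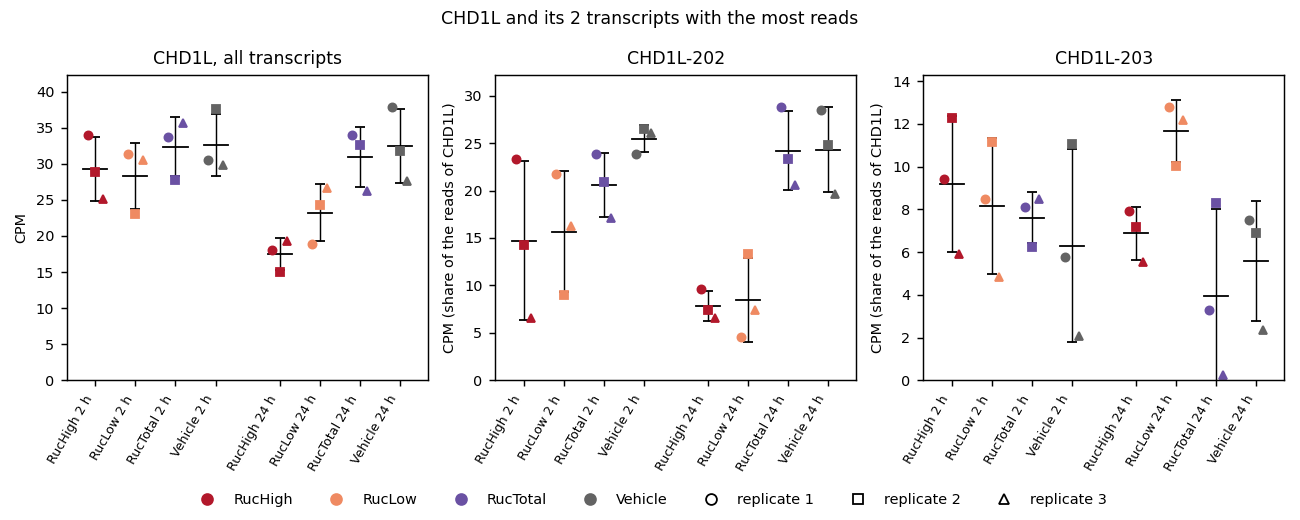
CHD1L and its 2 transcripts with the most reads in CPM (vertical axes) by group and time; points are replicates, bars the mean ± SD of 3. CHD1L-202 averages 7.83 and 8.46 CPM in RucHigh and RucLow cells at 24 h and 24.2 CPM in RucTotal cells.

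XRCC1 had 39.4, 42.1 and 40.6 CPM in RucHigh cells and 36.5, 44.9 and 39.5 CPM in RucLow cells at 24 h, against the 45.3 to 50.6 CPM of RucTotal cells, with no overlap. It differed by -0.24 on the log2 scale (SE 0.07, adjusted p = 0.0451 in edgeR). Without the block that call was lost when any 1 replicate was left out (adjusted p 0.192 to 0.449). The value turned to 0.03 on the log2(TPM + 1) scale. With the block XRCC1 was called (adjusted p = 0.00356), also with mean transcript length beside the block (0.00318). The blocked call held without replicate 1 (0.0475), but not without replicate 2 (0.133) or replicate 3 (0.0625). OGG1 had 25.8, 23.8 and 25.3 CPM in RucHigh cells and 24.0, 28.9 and 26 CPM in RucLow cells, against 36.3, 33.3 and 26.3 CPM in RucTotal cells. Its log2 fold change was -0.32 (SE 0.10, adjusted p = 0.042), and it was not called without replicate 1 (adjusted p = 0.368) or replicate 2 (0.475). With the block OGG1 was called (adjusted p = 0.0113), also with mean transcript length beside the block (-0.21, adjusted p = 0.0312). The blocked call held without replicate 3 (0.016), but not without replicate 1 (0.178) or replicate 2 (0.196).

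NTHL1 had 23.4, 23.8 and 15 CPM in RucHigh cells and 20.0, 22.9 and 18.6 CPM in RucLow cells, against 44.4, 40.9 and 18.6 CPM in RucTotal cells (-0.75, SE 0.30, adjusted p = 0.114 in edgeR, 0.0168 with the block). The difference was smaller without libraries under 2800 bases, at -0.39 (adjusted p = 0.28, and 0.0261 with the block), and with mean transcript length beside the block, at -0.34 (adjusted p = 0.0157). The mean transcript length of sorted samples at 24 h was 2987 to 3142 bases, whereas that of RucTotal replicates 1 and 2 was 2745 and 2721 bases. Without libraries under 2800 bases CHD1L kept a difference of -0.59 (adjusted p = 0.0132), whereas XRCC1 (-0.22, adjusted p = 0.0626) and OGG1 (-0.23, adjusted p = 0.0913) were called only with the block (adjusted p = 0.00828 and 0.0376).

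At 2 h all 9 members had lower fitted levels in sorted than in RucTotal cells, with a median of -0.15 against -0.01 over all genes, but 0 of 9 were called by edgeR without the block, where 2.41% of all genes were. The unadjusted p was under 0.05 for 2 members, APEX1 and POLB, and DESeq2 called both, with its share of all genes not given here. With the block APEX1 and POLB were also called lower, where 8.31% of all genes were and 14.9% were called in either direction. POLB had 16.7, 15.7 and 15 CPM in RucHigh cells and 15.8, 14.5 and 15 CPM in RucLow cells, against 19.6, 19.1 and 18.3 CPM in RucTotal cells, with no overlap. APEX1 had 226, 237 and 214 CPM in RucHigh cells and 204, 224 and 212 CPM in RucLow cells, against 265, 266 and 252 CPM in RucTotal cells, again with no overlap. The log2 fold changes were -0.30 for POLB (adjusted p = 0.0811, and 0.0205 with the block) and -0.25 for APEX1 (adjusted p = 0.101, and 0.0122 with the block). Neither was called with the block once any 1 replicate was left out (adjusted p 0.0871 to 0.186). Without libraries under 2800 bases the differences were -0.10 for POLB and -0.01 for APEX1 (adjusted p = 0.459 and 0.952 with the block). With mean transcript length as a covariate beside the block they came to -0.29 and -0.24, and both were called (adjusted p = 0.0097 and 0.00266).

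Immediate early genes were high in the same sorted samples: of 10 handling and stress genes, 5 were called higher at 2 h and 5 at 24 h, where 1.24% and 4.32% of all genes were. EGR1 was higher by 5.18 on the log2 scale at 2 h (adjusted p = 1.03e-09 in edgeR) and FOS by 4.29 (adjusted p = 4.62e-06). At 24 h these differences were 4.85 for EGR1 and 3.96 for FOS. Of 24 S phase genes 9 were called lower in sorted cells at 24 h, among them RRM1 (-0.44, adjusted p = 0.0132) and GINS2 (-0.67, adjusted p = 0.0168), where 5.14% of all genes were. With the block 15 of 24 were called lower and 1 higher at 24 h, against 13.9% and 10.8% of all genes. At 2 h 0 of 24 were called without the block, and with it 6 were called lower, where 8.31% of all genes were. The part of handling and of cell cycle position in the levels of the 9 members was not tested.

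Of the 23 other repair genes, 2 were called lower in sorted cells at 24 h and 1 higher, with a median of -0.19. Named after their values were seen, they were FEN1 (-0.80, adjusted p = 0.0183 in edgeR) and ADPRS (-0.50, adjusted p = 0.0327), and NEIL1 (0.95, adjusted p = 0.0441), a glycosylase at 0.932 CPM on average. These stood against 5.14% of all genes called lower and 4.32% called higher. With the block 9 of 23 were called lower and 1 higher at 24 h, against 13.9% and 10.8% of all genes. At 2 h 0 of 23 were called without the block, and with it 2 were called lower and 1 higher, where 8.31% and 6.62% of all genes were. Here too, the 24 h values rest on RucTotal replicates 1 and 2 with shorter transcripts, and fits with that length are not given.

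In Vehicle cells 0 of 9 members were called at 24 h against 2 h by edgeR with or without the block, and 0 by DESeq2, while 0.0248% of all genes were called without the block and 9.41% with it. XRCC1, UNG and NTHL1 had an unadjusted p under 0.05. XRCC1 had 39.5, 41.6 and 42.2 CPM in Vehicle cells at 24 h, against 32.8, 39.5 and 36.4 CPM at 2 h (0.18, SE 0.09, adjusted p = 0.28). UNG had 118, 110.5 and 111 CPM at 24 h, against 124, 139.7 and 131 CPM at 2 h (-0.21, SE 0.09, adjusted p = 0.263), lower in 3 of 3 replicates.

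NTHL1 had 20.2, 19.7 and 16.3 CPM in Vehicle cells at 24 h, against 47.5, 30.3 and 18.4 CPM at 2 h. It was lower in 3 of 3 replicates, although the lowest value at 2 h lay within the range at 24 h. The difference was -0.77 on the log2 scale (SE 0.35, edgeR adjusted p = 0.274, and 0.0581 with the block), and it was called with the block without replicate 3 (-0.92, adjusted p = 0.0479) and without libraries under 2800 bases (-0.49, adjusted p = 0.0336). Mean transcript length was 3119, 3108 and 3231 bases in these samples at 24 h, against 2714, 2745 and 3073 bases at 2 h, and with it as a covariate beside the block NTHL1 came to 0.01. The other 6 members lay between -0.20 (POLB) and 0.28 (TDP1).

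UNG was highest in Vehicle cells at 2 h and lowest in sorted cells at 24 h, with 89.6, 79.5 and 92.7 CPM in RucHigh and 92.1, 87.6 and 93.4 CPM in RucLow cells. Sorted against RucTotal cells at 24 h differed by -0.20 (edgeR adjusted p = 0.104, and 0.0504 with the block). DESeq2 called UNG lower there (adjusted p = 0.04), as did the blocked fit without libraries under 2800 bases (0.0329). Transcript UNG-201, of the upstream start shown above, holds most reads of the gene and so must move with its total. At 24 h UNG-201 had 78.9 ± 10.0 CPM in RucHigh cells and 83.9 ± 3.72 CPM in RucLow cells. It had 95.4 ± 7.10 CPM in RucTotal cells and 105 ± 4.90 CPM in Vehicle cells (SD, n = 3 each). UNG-202, of the downstream start, had 6.84 ± 1.19 CPM in RucHigh, 5.90 ± 0.815 CPM in RucLow, 4.55 ± 1.36 CPM in RucTotal and 7.75 ± 0.573 CPM in Vehicle cells. At 2 h UNG-201 had 104 ± 7.07 CPM in RucTotal cells and 120 ± 10.9 CPM in Vehicle cells, and UNG-202 had 5.93 ± 0.745 CPM in RucTotal cells and 7.0 ± 4.23 CPM in Vehicle cells.

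Spread within groups also set the members apart. The pooled SD of log2 CPM within groups was smallest for XRCC1 (0.08), UNG (0.10) and APEX1 (0.10), and largest for NTHL1 (0.47), TDP1 (0.25) and CHD1L (0.22). Over the 24 samples NTHL1 spanned 3.16-fold and CHD1L 2.52-fold, whereas APEX1 spanned 1.36-fold. Most reads fell on a single transcript for XRCC1 (XRCC1-201, 94.7%), NTHL1 (NTHL1-201, 85.4%) and APEX1 (APEX1-201, 76.7%). For LIG3 they were divided between LIG3-201 (43.6%) and LIG3-202 (41.4%), and for TDP1 between TDP1-201 (39.5%) and TDP1-203 (35.3%). POLB reads were spread over several short transcripts, with POLB-201 at 30.1% on average but between 0% and 57.8% among samples.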

How the data were processed

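PolyA RNA of 72 PEO1 libraries was analysed, and groups and replicate numbers came from the labels. The authors deposited estimated counts and TPM per transcript from Salmon. The submitters' notes also name cutadapt 4.7, DESeq2 1.44.0 and GRCh38; a Salmon version and the transcript annotation are not given in the sources used here. Of 257369 transcripts, 194437 were matched to genes by GENCODE release 29 and 11546 by its table of symbols. The other 51386 were left out.

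Estimated counts were summed per gene and over the 3 libraries of a replicate, and rounded. After filterByExpr and TMM scaling, genes were tested in edgeR 4.0.16 under R 4.3.3 (quasi-likelihood, 24 samples in 1 fit, Benjamini-Hochberg, threshold 0.05), and the scripts were tested on simulated data. Alternatives were the replicate block, the block with mean transcript length, DESeq2 1.42.0, its size factors, no filter, only the groups compared, an effective length offset, log2(TPM + 1) with limma 3.58.1, and each replicate left out. Fits without short or shallow libraries were chosen after seeing the data. No 2 libraries of a replicate agreed within sampling noise (lowest chi-square per degree of freedom 5.85).

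The study's reporting summary places biological replicates of sorting experiments on different days, so replicate numbers were taken to pair samples, and the blocked value stands where it changes a call. Deviations from group means correlated with a median of 0.43 between same-numbered samples (lowest -0.11) and -0.22 between others. Deviations cancel out within a group, so the negative median largely follows from the positive median. What same-numbered samples share was not tested. Members are named whatever their values. From the lists, the 2 genes per direction and comparison with the lowest adjusted p are named, and exceptions are marked. Some genes that these rules select are not reported here. Members and lists were chosen with earlier results of these data known.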

Additional observations from a re-analysis of the deposited data

Results flagged for a closer look

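Dixon's test for a value far from the others was applied to the 9 libraries of each group for each of the 9 genes. It marked 10 of 72 sets. Chance marks about 1 in 20 where values are independent, which libraries of 1 replicate and genes of 1 library are not. Of the 10, 9 lay in 4 libraries at 2 h with mean transcript lengths between 2255 and 2627 bases. In the library of RucLow replicate 2 with 17391033 reads and 2351 bases, NTHL1 had 83.5 CPM, CHD1L 8.60 CPM and UNG 81.5 CPM. In the Vehicle replicate 1 library of 2627 bases, NTHL1 had 70.1 CPM, CHD1L 4.07 CPM and XRCC1 24.9 CPM. In the RucHigh replicate 1 library of 2594 bases, NTHL1 had 52.3 CPM and OGG1 29.9 CPM. In the RucTotal replicate 1 library of 2255 bases, the shortest of all 72, UNG had 65.2 CPM. The remaining value was APEX1 at 242 CPM in RucHigh replicate 2 at 24 h, in a library of 3085 bases. The part of transcript length in these values was not tested.

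The effect of rucaparib on TDP1 in unsorted cells differed between the times when the replicate block was fitted, by -0.60 on the log2 scale (edgeR adjusted p = 0.0147). It was not called with mean transcript length beside the block (adjusted p = 0.0717), with the block without replicate 1 (0.178) or replicate 2 (0.185), or by DESeq2 (0.171).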

How the results depend on the processing

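Counts of the 9 members called moved with the setting, whereas the 3 members called without the block (XRCC1, OGG1 and CHD1L in sorted against RucTotal cells at 24 h) kept their direction except for XRCC1, which turned to 0.0268 on the log2(TPM + 1) scale. On that scale XRCC1 and OGG1, called with the block in RucTotal against Vehicle at 24 h, came to -0.03 and -0.01. LIG3, called in the difference from 2 h with the block when short libraries were left out (-0.30), came to 1.20 on that scale and 1.49 with the effective length offset. With the replicate block the count was 4 for RucTotal against Vehicle at 24 h, 1 for its difference from 2 h and 2 for sorted against RucTotal at 2 h, where the fit without the block gave 0 each. The block with mean transcript length gave 1 for RucTotal against Vehicle at 24 h and 2 for sorted against RucTotal at 2 h, as did DESeq2. For sorted against RucTotal at 24 h, called for 3 members, no filter gave 1, and fitting only the groups compared, the effective length offset and log2(TPM + 1) gave 0 each.

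With 1 replicate left out, with or without the block, the counts ranged over 0 to 3 for RucTotal against Vehicle at 24 h, 0 to 2 for its difference from 2 h, 0 to 4 for sorted against RucTotal at 24 h and 0 to 1 for Vehicle at 24 h against 2 h. When the libraries averaging under 2800 bases per transcript were left out, a setting chosen after seeing the data, the counts with the block were 3, 3, 5 and 2 in these comparisons, and 1 without the block for sorted against RucTotal at 24 h. Without the 2 libraries of lowest total, also chosen then, they were 4, 2, 5 and 2 with the block for RucTotal against Vehicle at 24 h, its difference from 2 h, sorted against RucTotal at 24 h and at 2 h. Of 1134 fold changes under the alternatives in the methods 128 changed sign, 127 of them uncalled under the alternative and in the fit without the block. Shares of all genes called are given only for edgeR with and without the block. The counts under the other settings stand without such a share. Every member had at least 709 counts per sample. Reads on transcripts that could not be assigned are missing from the gene totals. Reads of overlapping neighbours may in turn add to the totals of CHD1L, NTHL1, OGG1 and APEX1.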
